A study of Mus musculus with 116 samples.

Results

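The 6 segments described here, Igkv14-100, Igkv14-111, Igkv14-130, Igkv2-109, Igkv2-112 and Igkv2-137, lie in the distal part of the mouse Igk locus on chromosome 6, between 2203.1 and 3166.3 kb from Jk1. A join was counted at a segment when its position lay within 100 bp of the segment's RefSeq coordinates (GRCm38). The annotation held 162 Igkv segments on chromosome 6 (102 V segments and 60 pseudogenes), of which 139 carried at least 1 join, and all 6 members are annotated as V segments. The members held 46140 of the 1374899 rows in the 42 RAG libraries, or 3.36%, where a row is 1 sequenced join of the deposited lists.

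An antibody light chain gene is assembled when the RAG recombinase cuts between a segment and its recombination signal sequence (RSS), a heptamer and a nonamer held apart by a spacer. Each cut leaves a hairpin coding end, which is opened before joining, and a blunt signal end. Classical non-homologous end joining, in which Ku70 binds the ends as one subunit of Ku and ligase IV (Lig4) seals them, normally joins a V coding end to a J coding end; a V segment that lies in the same orientation as its J partner does so by deleting the DNA between them.

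The libraries were made from genomic DNA of v-Abl-transformed pro-B cells, which are immature B-lineage cells immortalised by a viral kinase. All cells carried Emu-Bcl2 and were held in G1 with STI-571, a kinase inhibitor, at 3 µM for 96 h. The Jk1 coding end served as the bait (position 70722562), and the question was how Ku70 and Lig4 shape the joins. The 14 groups had 3 replicate libraries each, and the letter that starts a clone name is called its lineage here. WT clones were A and B, Ku70-/- clones A1 and B1, and Lig4-/- clones A1 (with a further set, A1_b), B1 and C. Lig4-/- cells with Lig4 added back (Lig4-/- +Lig4) were A1 and C, Lig4-/-Ku70-/- cells were A1_1 and C1, and the latter with Ku70 added back (Lig4-/-Ku70-/- +Ku70) were A1_1 and C1. Each group is 1 clone, the genotypes rest on the labels, and nothing says that replicates came from separate cultures, so p-values measure the spread between libraries of a clone, which may be technical.

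The RAG libraries held 3 to 305846 rows, and depth followed genotype: 291174 to 305846 rows in WT B and 47130 to 53074 in WT A, but 3 to 74 in the Lig4-/- groups. Raw reads had been equalised at 167151 in lineage A, 600000 in lineage B and 377068 in lineage C. The 42 pairs of replicates shared no read name. In 28 pairs the segment counts differed by more than sampling noise of rows (chi-square test), 4 pairs of very small libraries did not differ and 10 pairs were too small to test. Reads carry no molecular identifiers, so this test cannot show that 2 libraries came from separate samples. With no read name shared, all were kept as separate libraries. WT B replicates nonetheless shared 57.7% to 59.6% of their distinct member joins.

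The sequences below run across the V end of each member, 5′ to 3′ on the plus strand, as the consensus of the deposited reads: 30 coding bases, then the 28 bases of the RSS with heptamer and nonamer in capitals. They are shown because every measurement that follows is a position relative to the border between coding bases and heptamer.
Igkv14-100 (chr6:68519448-68519505): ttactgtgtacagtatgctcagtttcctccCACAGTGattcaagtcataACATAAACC
Igkv14-111 (chr6:68256840-68256897): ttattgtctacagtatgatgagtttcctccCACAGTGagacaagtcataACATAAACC
Igkv14-130 (chr6:67791482-67791539): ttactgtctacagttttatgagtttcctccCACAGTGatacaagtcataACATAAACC
Igkv2-109 (chr6:68303129-68303186): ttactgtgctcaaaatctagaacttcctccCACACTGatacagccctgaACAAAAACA
Igkv2-112 (chr6:68220677-68220734): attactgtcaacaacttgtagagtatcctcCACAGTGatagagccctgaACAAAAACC
Igkv2-137 (chr6:67556187-67556244): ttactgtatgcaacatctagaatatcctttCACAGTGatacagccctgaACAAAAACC
Jk1 (chr6:70722562-70722599): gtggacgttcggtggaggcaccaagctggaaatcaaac

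All 6 members had a spacer of 12 bases and all lay in the same orientation as Jk1. Of the segments that could be oriented from the reads, 55 (members included) lay that way and 80 were inverted. The 3 Igkv14 members shared the consensus heptamer CACAGTG and 1 nonamer change, A4T against ACAAAAACC (counted from 1 at the first base of the nonamer). Igkv2-112 and Igkv2-137 matched both consensus elements, whereas Igkv2-109 departed at G5C in the heptamer and C9A in the nonamer. The RSS of Igkv2-137 rests on as few as 6 reads at a position, against at least 29 at the other members. Its lowest agreement between reads over the bases shown was 87.5%. Of 28 RSS bases, 25 to 27 were identical between members of a family and 19 to 22 between the families. The RefSeq end of Igkv2-112 lay 1 bp short of its heptamer, and its coding end was taken at the heptamer. The consensus did not differ between lineages at any of the 30 to 58 positions per segment that had at least 5 reads in each of 2 lineages or more.

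In WT cells the members were used unequally. Igkv2-109 was the most used and Igkv2-137 the least in all 6 WT libraries except WT A replicate 1, where Igkv14-111 ranked above Igkv2-109. Igkv2-109 took 0.634%, 0.983% and 1.07% of rows in the WT A libraries and 1.67%, 1.65% and 1.64% in WT B, so the lineages did not overlap. Igkv14-111 took 0.715% ± 0.055 (SD, n = 3) in WT A and 0.582% ± 0.011 in WT B, also without overlap (lowest WT A library 0.654%, highest WT B library 0.592%). Part of the WT A share came from joins that lay past the RSS of Igkv14-111 and are described at the end; without them, a count added after the data were seen, its share was 0.664%, 0.676% and 0.528% in WT A, which overlapped WT B.

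Igkv14-130 stood at 0.557% ± 0.167 in WT A and 0.428% ± 0.021 in WT B, and Igkv14-100 at 0.436% ± 0.165 and 0.203% ± 0.011. Igkv2-112 stood at 0.360% ± 0.171 and 0.474% ± 0.007. Igkv14-130 lay above both Igkv14-100 and Igkv2-112 in each WT A library, while the order of the latter pair changed between libraries. In WT B the order Igkv2-109, Igkv14-111, Igkv2-112, Igkv14-130, Igkv14-100 held in each library. Igkv2-137 contributed 0.0318% to 0.0509% of rows in WT A and 0.0553% to 0.0570% in WT B. By rank among 96 segments with a mean share of at least 0.1% of rows, Igkv2-109 was 43rd in WT A and 24th in WT B and Igkv14-100 was 66th and 83rd; Igkv2-137 fell under that minimum.

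**Figure D1:**
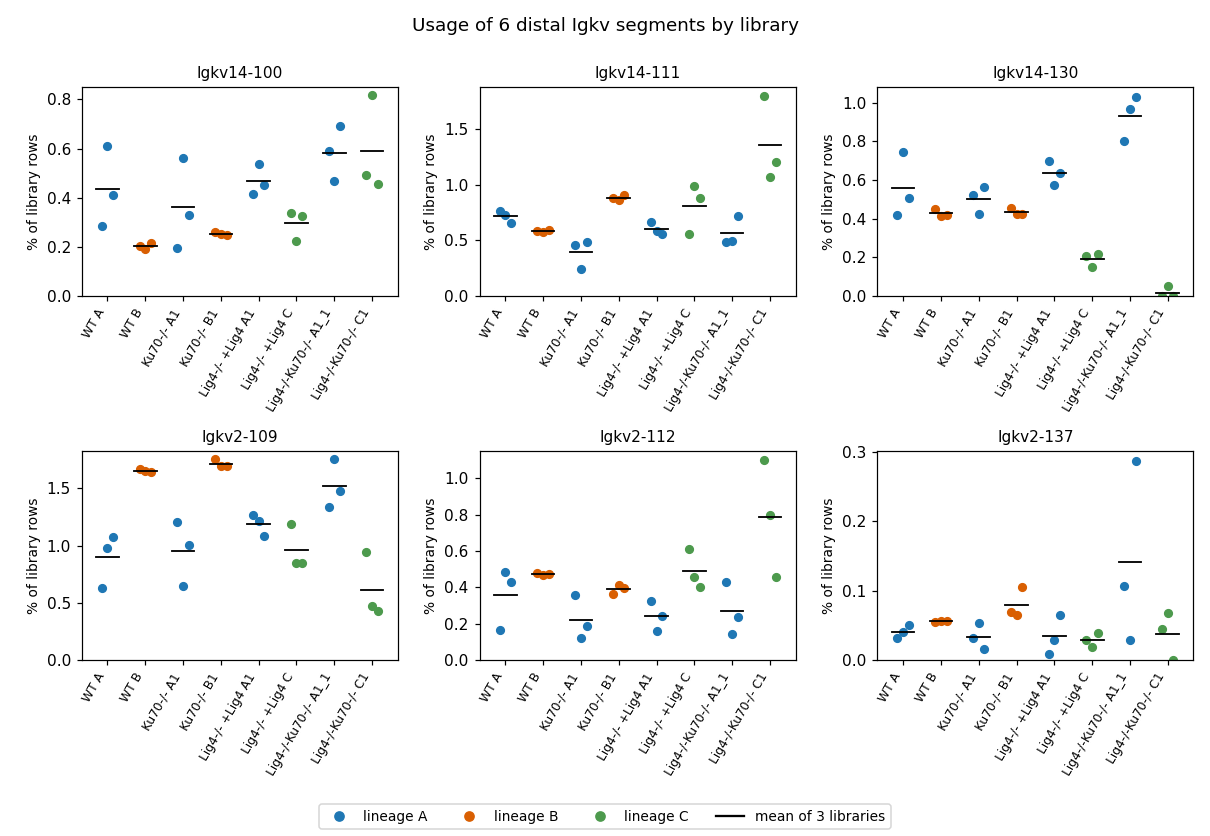
Percent of library rows at each of the 6 segments (y axis, linear, from 0) in the 24 libraries of the 8 groups with at least 1000 rows per library; points are libraries, coloured by lineage, and black lines are means of 3. Igkv2-109 is highest in lineage B (1.64% to 1.76%), and Igkv14-130 is close to 0 in Lig4-/-Ku70-/- C1.

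Loss of Ku70 was followed by fewer rows at the members, while no member's share of all rows was called different from WT over both lineages. Per 100000 raw reads, member joins numbered 648, 1119 and 994 in the WT A libraries and 50.9, 70.0 and 98.7 in Ku70-/- A1. In lineage B they numbered 1673, 1638 and 1732 in WT and 317, 372 and 383 in Ku70-/- B1. Neither lineage showed any overlap between genotypes, and the mean log2 difference was -2.95 (exact permutation test within lineages, two-sided, p = 0.005, the smallest that 400 relabellings allow; adjusted p = 0.0104 over 29 tests). Counted as distinct junctions, each once per library, the difference was -1.23 with p = 0.09 in the same exact permutation test. That fall came from lineage A. In lineage B distinct member joins were not fewer in Ku70-/- B1 than in WT B, and the libraries overlapped. Distinct junctions of all joins numbered 28057, 27742 and 28342 in WT B and 27337, 31244 and 31504 in Ku70-/- B1. In lineage A they numbered 12893, 5085 and 10576 in WT A and 1219, 2047 and 3609 in Ku70-/- A1. The lineage B junctions came from 291174, 292983 and 305846 rows in WT B and from 50218, 59967 and 60811 in Ku70-/- B1. A distinct junction was set by its positions, orientation and overlap or insertion length. Joins that differed only in which bases were inserted thus counted once. Distinct counts can therefore understate the number of joins in WT, and by how much was not tested.

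As a share of rows, the members together made up 3.01% ± 0.656 in WT A against 2.47% ± 0.365 in Ku70-/- A1, and 3.40% ± 0.047 in WT B against 3.76% ± 0.039 in Ku70-/- B1 (SD, n = 3 each). The mean log2 difference in the summed share was -0.06 (exact permutation p = 0.615). In a fit across 96 segments (limma on log2 of the percent plus 0.05, Benjamini-Hochberg adjustment), 35 segments, 36.5%, differed between Ku70-/- and WT (18 higher and 17 lower; 18 higher and 41 lower over distinct junctions). None of the 5 members tested was among them, and none had an unadjusted p under 0.05, the lowest being 0.139 for Igkv2-112 (log2 difference -0.41, SE 0.27). Over distinct junctions, however, Igkv2-112 (-0.57, limma adjusted p = 0.0124) and Igkv14-100 (-0.44, limma adjusted p = 0.0209) were called as lower.

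The members' median log2 difference was -0.04, equal to the median of all 96 segments at 2 decimals. Of the other 38 distal segments, those between Igkv2-137 and Igkv14-100, 21 were tested: 7 rose and 2 fell, with a median of -0.00297. Igkv14-111 was the 1 member of 5 whose response differed between the lineages. In lineage A its share went from 0.762%, 0.730% and 0.654% in WT to 0.455%, 0.247% and 0.486% (log2 difference -0.82, SE 0.25, limma adjusted p = 0.0179; 27.1% of segments called in that lineage). The call did not hold without the joins past the RSS (-0.63, SE 0.25, limma adjusted p = 0.0616), after centring on the median segment (-0.63, limma adjusted p = 0.0616) or without Ku70-/- A1 replicate 2 (-0.55, limma adjusted p = 0.0974).

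In lineage B the share of Igkv14-111 stood at 0.583%, 0.571% and 0.592% in WT and 0.882%, 0.862% and 0.909% in Ku70-/- B1. That difference of 0.56 on the log2 scale had an adjusted p of 0.111 in the limma fit (24% of segments called), although the libraries did not overlap. The difference between the lineages was 1.39 (SE 0.35, limma adjusted p = 0.00551; 14.6% of segments called), and 1.19 without the joins past the RSS (SE 0.35, limma adjusted p = 0.0188). Igkv2-109, by contrast, changed by 0.07 (SE 0.24) in lineage A and 0.05 (SE 0.24) in lineage B.

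**Figure D2:**
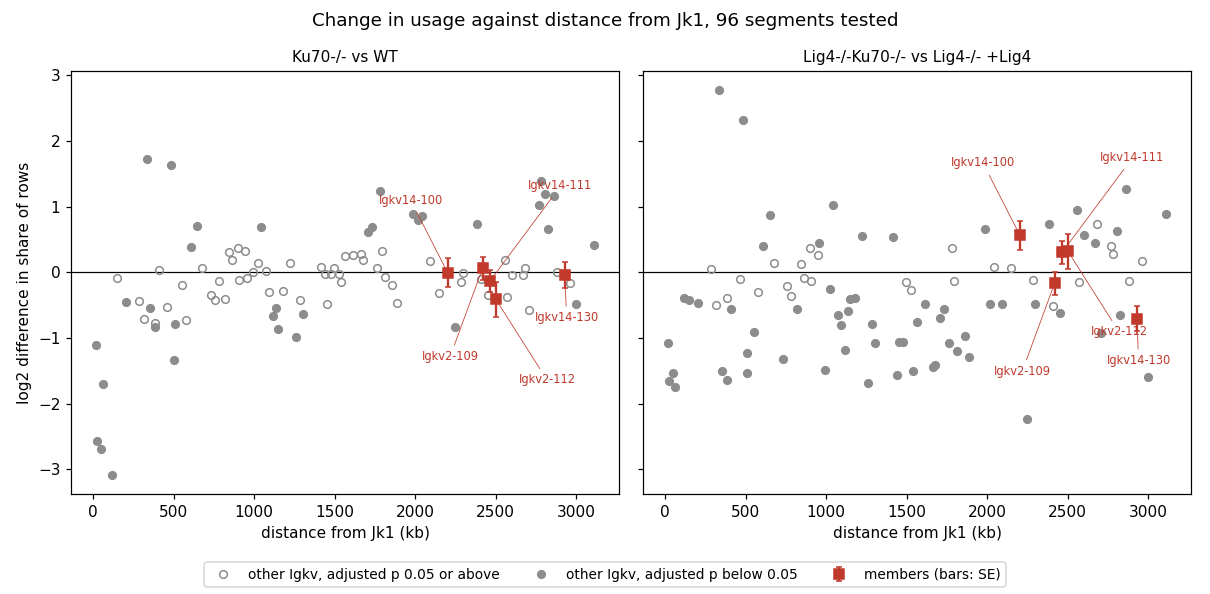
Log2 difference in share of rows (y axis) against distance from Jk1 in kb (x axis) for the 96 segments tested, for Ku70-/- against WT (left) and Lig4-/-Ku70-/- against Lig4-/- +Lig4 (right); red squares are the 5 members tested with SE bars, grey circles other segments, filled where the limma adjusted p was below 0.05. The members cluster around 0 on the left, while on the right Igkv14-100 lies above 0 (0.57) and Igkv14-130 below it (-0.70).

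The structure of member joins changed far more than their share. The joins printed next are from the member with the most rows and from Igkv14-111. They are the most frequent insertion-bearing join of WT and a microhomology join of each Ku70-deficient genotype. Capitals mark the inserted base in WT and the bases shared by both ends (microhomology) in the others. V bases are to the left, and bases of Jk1 or of the sequence that follows it are to the right. Rows are those with exactly the sequence shown; libraries are those with a join of the same end losses and overlap or insertion length.
Igkv2-109, WT, 560 rows, 6 of 6 libraries: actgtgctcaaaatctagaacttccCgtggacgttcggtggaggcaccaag
Igkv2-109, Ku70-/-, 57 rows, 4 of 6 libraries: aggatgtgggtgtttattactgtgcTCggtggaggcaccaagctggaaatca
Igkv2-109, Lig4-/-Ku70-/-, 8 rows, 1 of 6 libraries: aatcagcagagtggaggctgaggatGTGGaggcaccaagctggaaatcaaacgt
Igkv14-111, WT, 401 rows, 6 of 6 libraries: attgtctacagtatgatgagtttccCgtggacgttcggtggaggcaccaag
Igkv14-111, Ku70-/-, 25 rows, 4 of 6 libraries: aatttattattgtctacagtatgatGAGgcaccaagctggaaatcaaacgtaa
Igkv14-111, Lig4-/-Ku70-/-, 7 rows, 2 of 6 libraries: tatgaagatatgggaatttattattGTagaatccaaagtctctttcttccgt

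In the WT joins shown, the V end had lost 3 bp, Jk1 had lost none and 1 base was inserted. The Ku70-/- joins had lost 19 bp of Igkv2-109 and 8 bp of Jk1 with 2 bp of microhomology, and 8 bp of Igkv14-111 and 14 bp of Jk1 with 3 bp. The Lig4-/-Ku70-/- joins had lost 37 and 11 bp with 4 bp of microhomology, and 23 and 42 bp with 2 bp. The loss of 42 bp exceeds the 38 bp of Jk1, so that Igkv14-111 join kept no Jk1 base. Bases in the overlap are counted as kept on both sides.

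Long losses from the V end were rare in WT and frequent without Ku70. Among member joins in the coding orientation, 1.02%, 0.748% and 0.785% in WT A and 1.55%, 1.64% and 1.66% in WT B had lost more than 10 bp. In Ku70-/- A1 the shares were 54.5%, 68.0% and 59.1%, and in Ku70-/- B1 63.3%, 67.3% and 67.8%. No Ku70-/- library came near a WT library, and the mean difference was 62.1 percentage points (exact permutation p = 0.005, adjusted p = 0.0104).

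The whole V end was kept in 17.7% ± 0.819 of WT A and 15.5% ± 0.067 of WT B joins, against 0.253% ± 0.437 in Ku70-/- A1 and 0.845% ± 0.407 in Ku70-/- B1. On the Jk1 side of the same joins, losses over 10 bp went from 0.562% ± 0.209 to 50.5% ± 19.4 in lineage A and from 0.519% ± 0.054 to 65.3% ± 1.60 in lineage B. Within Ku70-/- B1, the deepest Ku70-/- group, the members were not alike: 77.3% ± 3.81 of Igkv2-109 and 77.9% ± 1.59 of Igkv2-137 coding joins had lost more than 10 bp, compared with 50.0% ± 1.57 for Igkv14-111 and 54.6% ± 5.18 for Igkv14-130. Igkv14-100 (58.6% ± 7.66) and Igkv2-112 (65.2% ± 2.80) stood in between. Every library of Igkv2-109 and Igkv2-137 lay above every library of Igkv14-111 and Igkv14-130, and this ordering was not tested.

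Microhomology and insertions moved in opposite directions. Microhomology of 2 bp or more was present in 0.646%, 2.57% and 0.903% of WT A member joins and in 1.06%, 0.824% and 1.33% of WT B member joins, but in 18.8%, 20.5% and 19.4% in Ku70-/- A1 and 19.3%, 18.1% and 18.0% in Ku70-/- B1. The mean rise was 17.8 percentage points (exact permutation p = 0.005, adjusted p = 0.0104), and 37.0 points when 1 bp was counted as microhomology. Inserted bases were present in 63.9% ± 1.39 of WT A and 42.5% ± 0.811 of WT B member joins, and in 0.392% ± 0.679 of Ku70-/- A1 and 1.84% ± 0.339 of Ku70-/- B1 joins, a drop of 52.1 percentage points over the lineages (-52.1; exact permutation p = 0.005, adjusted p = 0.0104).

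Among members in Ku70-/- B1, microhomology ran from 12.7% ± 6.01 at Igkv14-100 to 21.3% ± 0.715 at Igkv2-109. Insertions in WT were short, with a median of 2 bp in each of the 6 WT libraries and 80.7% to 89.8% of them 1 to 3 bp long. Palindromic (P) bases, which copy the complement of a coding end and arise when its hairpin is opened off centre, can be looked for at V ends that were kept whole. There the first inserted base was the complement of the last V base in 63.9%, 55.0% and 64.4% of WT A and 63.5%, 69.8% and 65.1% of WT B joins.

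At V ends that had been trimmed the same match occurred in 14.9% to 22.4% of WT A and 18.7% to 19.1% of WT B joins. Inserted joins with a whole V end numbered 17, 7 and 6 in the Ku70-/- B1 libraries, and the first inserted base matched in all of them, compared with 31.6%, 20.7% and 41.2% of the 19, 29 and 17 inserted joins with a trimmed V end. Bases that match the germline by chance are read as V or J, so these shares refer to what the alignment left unassigned.

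**Figure D3:**
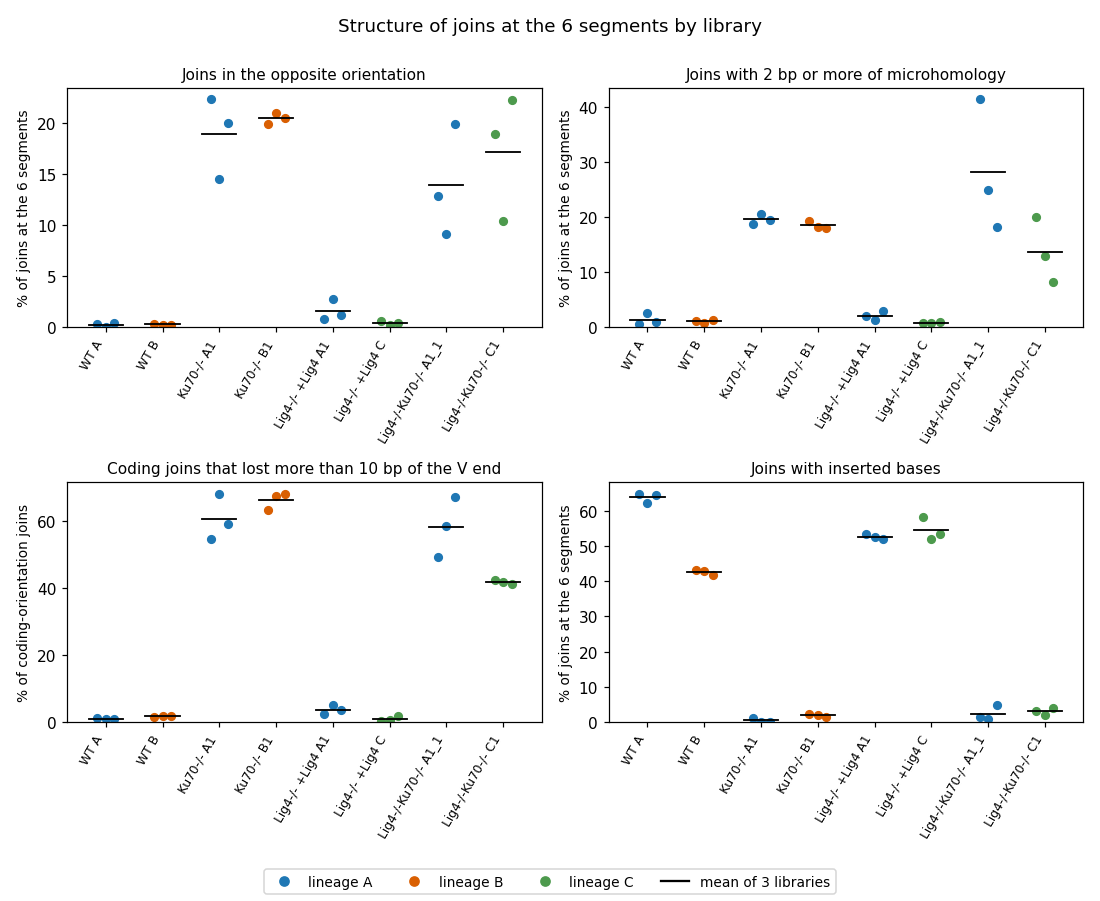
Share of member joins (y axes, percent, from 0) that are in the opposite orientation, carry 2 bp or more of microhomology, lost more than 10 bp of the V end (of coding-orientation joins) or hold inserted bases, in the 8 groups with at least 1000 rows per library; points are libraries, black lines means of 3. In all 4 panels the Ku70-/- and Lig4-/-Ku70-/- libraries lie apart from the WT and Lig4-/- +Lig4 libraries.

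The orientation of member joins changed as well. A join in the opposite orientation has the direction of a link from Jk1 to the RSS side of the V break, the signal end. For these segments it inverts the DNA in between in place of deleting it. Joins were scored by orientation alone, so some of them lay on the coding side of the border. Such joins made up 0.277%, 0 and 0.421% of member joins in WT A and 0.319%, 0.244% and 0.250% in WT B. They made up 22.4%, 14.5% and 20.0% in Ku70-/- A1 and 20.0%, 21.0% and 20.5% in Ku70-/- B1. The mean rise was 19.5 percentage points (exact permutation p = 0.005, adjusted p = 0.0104), again without overlap. Over the settings tried, the rise ran from 13.9 to 21.8 points.

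In the 3 Ku70-/- B1 libraries together, 1319 opposite member joins lay a median of 11 bp into the RSS side, 76.3% of them ended within the RSS, 12.1% beyond it, and 6.75% kept the whole signal end. The 82 opposite joins of WT B had a median of 0 bp, and 22.0% kept the whole signal end. On the coding side of the border lay 39.0% of them, compared with 4.85% in Ku70-/- B1 and 10.1% of 69 in Ku70-/- A1. The 100 bp window limits how far into the flank an opposite join could be counted. Single members ranged from 16.6% ± 0.119 opposite joins at Igkv2-109 to 31.4% ± 5.02 at Igkv2-137 in Ku70-/- B1.

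Within sequencing runs that held both genotypes (3 runs, taken from read names), the Ku70-/- minus WT differences were -2.95 in log2 abundance, and 18.6 percentage points in opposite orientation, 17.8 in microhomology, 63.7 in end loss and -52.0 in insertions. All had an exact permutation p of 0.025.

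**Figure D4:**
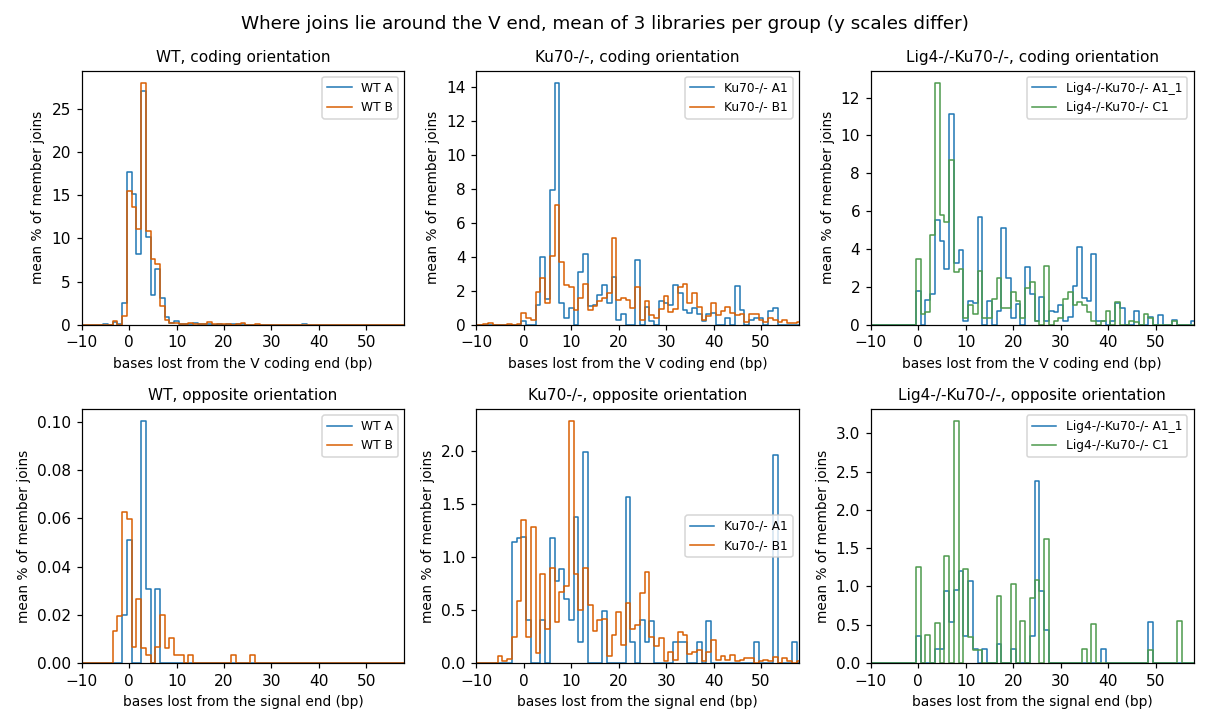
Position of member joins around the V end, as bases lost from the coding end (upper row) or from the signal end for opposite joins (lower row), in bp on the x axes; the y axes give the mean percent of member joins over 3 libraries, with a scale for each panel. In WT nearly all joins lie within 10 bp of the coding end with a peak at 3 bp, whereas the Ku70-/- and Lig4-/-Ku70-/- profiles run out beyond 40 bp on the coding side.

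Whether these changes were particular to the members depended on which other segments they were set against. Against all other Igkv segments, the rise in opposite joins on loss of Ku70 was smaller at the members by 10.7 percentage points (-10.7; exact permutation p = 0.005, adjusted p = 0.0104). The other segments, however, mix orientations. In Ku70-/- B1 opposite joins made up 20.5% ± 0.514 at the members, 21.0% ± 0.199 at other segments of the same orientation and 35.7% ± 0.775 at inverted segments, whose opposite joins form by deletion.

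In Ku70-/- A1 the corresponding shares were 19.0% ± 4.01, 13.2% ± 5.83 and 38.2% ± 4.62. Against segments of the same orientation alone, a comparison added after the data were seen, the members' rise was larger by 2.58 percentage points with an exact permutation p of 0.1, with lineage A at 5.73 and lineage B at -0.566.

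The rise in microhomology differed between members and all other segments by 1.30 percentage points (exact permutation p = 0.055, adjusted p = 0.0997; with the replicate number as a block, an exact sign-flip test gave p = 0.0312). Against other segments of the same orientation the difference was 2.93 points, at 2.52 in lineage A and 3.34 in lineage B (exact permutation p = 0.01). In lineage B part of that difference lay in WT, where the members stood 2.06 points below those segments (-2.06), and in Ku70-/- B1 they stood 1.28 points above.

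End loss at the other segments was counted from the RefSeq boundary, and only where that lay near the most frequent WT A end. The rise in end loss differed by 2.12 points between members and these other segments (exact permutation p = 0.535), and here the lineages disagreed. The difference was -4.23 points in lineage A and 8.47 in lineage B. Shuffling genotype labels within each lineage gave an exact permutation p of 0.02 for the gap of 12.7 points. That shuffling assumes no genotype effect in either lineage, so it does not test whether the lineages responded equally.

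Without Lig4 few joins of any kind remained, and few of them were at the members. No member join was present in 146 rows of Lig4-/- A1 or 114 rows of A1_b, which allows shares of up to 2.05% and 2.63%, respectively (3 rows of each total). Lig4-/- B1 held 1, 1 and 9 member rows, of which 7 in 2 libraries were a single Igkv14-100 join with 16 bp of V loss and 6 bp of Jk1 loss. Lig4-/- C held 4, 0 and 18 rows, and all 22 were 1 Igkv2-112 join that had lost 56 bp of V and 17 bp of Jk1. Because these groups held only 165 and 65 rows in all, member rows still made up 6.67% of Lig4-/- B1 (95% exact interval 3.37% to 11.6%) and 33.8% of Lig4-/- C (22.6% to 46.6%), intervals that cover counting error only.

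Member joins per raw read were lower in Lig4-/- than in WT (-11.7 in log2; exact permutation p = 0.005, adjusted p = 0.0104), a value that depends on the 0.5 added to counts at or near 0. Adding Lig4 back was followed by 229, 197 and 249 member joins per 100000 reads in A1 and 273, 149 and 184 in C. Abundance rose by 8.64 over Lig4-/- A1 and C, a value that rests on the same 0.5 (exact permutation p = 0.005, adjusted p = 0.0104). In A1 this remained below WT A by 2.00 in log2 (-2.00) without overlap (exact permutation p = 0.1, the smallest possible), and by 0.59 over distinct junctions (-0.59; exact permutation p = 0.2).

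The joins present after Lig4 was added back were mostly coding joins with short losses. In Lig4-/- +Lig4 A1, 1.57% ± 1.03 of member joins were in the opposite orientation, 2.06% ± 0.831 had microhomology, 3.67% ± 1.31 of coding joins had lost more than 10 bp and 52.7% ± 0.687 carried insertions. The corresponding values in C were 0.398% ± 0.205, 0.752% ± 0.098, 0.854% ± 0.771 and 54.5% ± 3.31. In lineage A, the one with a WT group, the differences from WT were 1.34 points for opposite joins and 2.82 points for end loss (exact permutation p = 0.1 for both, the smallest that 3 against 3 libraries allow). Usage shifted by 0.10 (exact permutation p = 0.9), and none of the 5 members tested was called in the limma fit, where 11.5% of segments were; the lowest unadjusted p among the members was 0.0988, for Igkv2-109.

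Member joins were more frequent in cells that lacked Ku70 as well as Lig4. Lig4-/-Ku70-/- A1_1 held 41.9, 79.0 and 111 member joins per 100000 reads and C1 held 51.7, 51.2 and 48.8, a log2 rise of 6.85 over Lig4-/- (exact permutation p = 0.005, adjusted p = 0.0104). Against Ku70-/- in lineage A the difference in abundance was 0.0225 (exact permutation p = 1.0). When Ku70 was added back, A1_1 held 0, 0 and 4 member rows and C1 held 10, 24 and 23, and abundance dropped by 5.12 (exact permutation p = 0.005, adjusted p = 0.0104).

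The joins of Lig4-/-Ku70-/- cells departed from those of Lig4-/- +Lig4 cells of the same lineages in every feature measured; this comparison was added after the data were seen. End loss over 10 bp reached 49.2%, 58.3% and 67.1% of coding joins in A1_1 and 42.4%, 41.6% and 41.3% in C1, a difference of 47.7 points. Opposite joins reached 12.9%, 9.09% and 19.9% in A1_1 and 19.0%, 10.4% and 22.3% in C1, a difference of 14.6 points, or 7.70 with joins counted within 20 bp of a segment.

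Microhomology reached 41.4%, 25.0% and 18.3% in A1_1 and 20.0%, 13.0% and 8.15% in C1, a difference of 19.6 points, and insertions were lower by 50.9 points (-50.9). The exact permutation p was 0.005 (adjusted p = 0.0104) for each of the 4 features, with no overlap in either lineage. These libraries held only 70 to 195 member joins each.

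Opposite joins were unevenly spread over the members in the Lig4-/-Ku70-/- cells. At Igkv14-111 they numbered 27 of 80, 18 of 63 and 33 of 87 in the C1 libraries and 2 of 9, 6 of 17 and 11 of 30 in A1_1, or 33.4% ± 4.69 and 31.4% ± 7.97. At Igkv2-109 they made up 4.25% ± 4.84 in C1 and 10.4% ± 9.19 in A1_1, and at Igkv2-112 they numbered 4 of 49, 0 of 47 and 0 of 33 in C1 and none of 8, 5 and 10 in A1_1. Igkv14-100 had 2 of 22, 2 of 48 and 7 of 33 in C1 and 2 of 11, 2 of 16 and 5 of 29 in A1_1. Igkv14-130 had 0 of 3 in the 1 C1 library that held it and 0 of 15, 3 of 33 and 12 of 43 in A1_1, and Igkv2-137 had 0 of 6 in C1 and 3 of 15 in A1_1. In C1 every library of Igkv14-111 lay above every library of Igkv2-109 and Igkv2-112, and the difference between members was not tested. Single joins that fill several rows weigh on such counts (12 of the 78 opposite Igkv14-111 rows in C1 were 1 join).

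Against Ku70-/- A1, no feature of Lig4-/-Ku70-/- A1_1 joins passed the test. The differences were -5.01 points in opposite joins, 8.66 in microhomology, -2.34 in end loss and 1.95 in insertions, with exact permutation p of 0.2, 0.4, 0.7 and 0.2, where 0.1 is the smallest possible. Single libraries moved these values: microhomology was 2.06 without Lig4-/-Ku70-/- A1_1 replicate 1 and 13.6 without replicate 3.

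The share of rows at the members was higher in Lig4-/-Ku70-/- A1_1 (3.75%, 3.86% and 4.44%) than in Ku70-/- A1 (2.76%, 2.06% and 2.58%), by 0.71 on the log2 scale (exact permutation p = 0.1). In the limma fit 44.8% of segments differed in this contrast, 20.8% upwards. Among the 5 members tested Igkv14-130 rose by 0.83 (SE 0.28, limma adjusted p = 0.0190) and Igkv2-109 by 0.68 (SE 0.24, limma adjusted p = 0.0271); Igkv14-100, Igkv14-111 and Igkv2-112 were not called. Both calls were lost without Ku70-/- A1 replicate 2, at adjusted p = 0.0598 and 0.156 in limma. Igkv2-109 was also lost without Lig4-/-Ku70-/- A1_1 replicate 2 (adjusted p = 0.0833), and Igkv14-130 without replicate 3 of that group (adjusted p = 0.0532), over distinct junctions (0.0928) or with 0.01 in place of 0.05 added to the percent (0.129).

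The members' median difference in that contrast was 0.68 against -0.07 over all 96 segments. The other distal segments had a median of 0.69, and 8 of the 21 tested rose while 1 fell. Igkv2-137, too rare for the filter, took 0.0337% ± 0.0186 of rows in Ku70-/- A1 and 0.141% ± 0.132 in Lig4-/-Ku70-/- A1_1. In a fit without the filter its difference was 0.97 (SE 0.39, limma adjusted p = 0.0703).

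Against Lig4-/- +Lig4, the summed share of Lig4-/-Ku70-/- was 0.30 higher in log2, with an exact permutation p of 0.03 (adjusted p = 0.058; with the replicate block, exact sign-flip p = 0.0625). The difference was -0.0138 over distinct junctions. In the limma fit 68.8% of segments differed, 17.7% upwards and 51% downwards, with a median of -0.39 over all segments; after centring each library on its median segment, 26 rose and 26 fell. Among the members, Igkv14-100 rose by 0.57 (SE 0.22, limma adjusted p = 0.0258) and Igkv14-130 fell by 0.70 (SE 0.20, limma adjusted p = 0.00309). The rise of Igkv14-100 was -0.19 over distinct junctions and lost its call without any 1 of 4 libraries (Lig4-/-Ku70-/- A1_1 replicate 3 or C1 replicate 2, Lig4-/- +Lig4 A1 replicate 1 or C replicate 2; limma adjusted p = 0.0548 to 0.0754); the fall of Igkv14-130 lost its call after centring (-0.36, limma adjusted p = 0.163), where Igkv14-111 (0.65) and Igkv2-112 (0.67) were called as higher.

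The fall of Igkv14-130 was seen in lineage C and not in lineage A. Igkv14-130 took 0.205%, 0.148% and 0.219% of rows in Lig4-/- +Lig4 C and 0, 0.0511% and 0 in Lig4-/-Ku70-/- C1, where 3 rows of 1 library were the same join. Pooled, this was 0.0171% of 17556 rows (95% exact interval 0.00352% to 0.0499%, counting error only) against 0.195% (0.166% to 0.228%). Among the 5 members tested in lineage C, Igkv14-100 (0.86) and Igkv14-111 (0.71) rose and Igkv14-130 (-1.92) and Igkv2-109 (-0.67) fell, all at limma adjusted p of 0.0237 or less, where 53.1% of segments were called. Of these, Igkv14-130 kept its call under each other setting and without each library (-3.44 with 0.01 in place of 0.05 added to the percent). The call of Igkv14-100 was lost over distinct junctions (0.00123, limma adjusted p = 0.996) and without Lig4-/-Ku70-/- C1 replicate 2 or Lig4-/- +Lig4 C replicate 2 (0.125 and 0.110). That of Igkv14-111 was lost without replicate 1 of either group (0.108 and 0.129), and that of Igkv2-109 after centring (-0.10, limma adjusted p = 0.744) and without Lig4-/-Ku70-/- C1 replicate 2 or 3 or Lig4-/- +Lig4 C replicate 1 (0.107, 0.127 and 0.124). In lineage A none of the 5 was called, against 50% of segments, and the share of Igkv14-130 was 0.637% ± 0.061 in Lig4-/- +Lig4 and 0.932% ± 0.115 in Lig4-/-Ku70-/-.

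The difference between the lineages was -2.43 on the log2 scale of percent plus 0.05 (SE 0.39, limma adjusted p = 7.95e-05), and 19.8% of segments were called in it. Igkv2-109 was called too, at -1.01 (SE 0.35, limma adjusted p = 0.0400): it took 0.942%, 0.477% and 0.429% in Lig4-/-Ku70-/- C1 against 1.19%, 0.848% and 0.848% in Lig4-/- +Lig4 C, and 1.52% ± 0.211 against 1.19% ± 0.092 in lineage A. That call was lost after centring (-0.57, limma adjusted p = 0.224), without the filter on low shares (0.0698), without the trend in eBayes (0.0588) and without 9 of the 12 libraries left out in turn, namely each Lig4-/- +Lig4 library, Lig4-/-Ku70-/- A1_1 replicate 2 and C1 replicates 2 and 3 (limma adjusted p of 0.118 at most). In the same difference between lineages, 5 of the 21 other distal segments tested were called lower and 1 higher, with a median of -0.64. The median was 0.49 over the 5 members tested and -0.06 over all 96 segments. In lineage C alone, 7 of the other distal segments fell and 4 rose. Recurrent joins weighed on the small Lig4-/-Ku70-/- libraries: 1 Igkv14-100 join made up 21.4% of that segment's rows in C1.

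Too few joins remained after Ku70 was added back for a test of their structure. In the 57 member joins of Lig4-/-Ku70-/- +Ku70 C1, 18 of them distinct within libraries, 21.1% were in the opposite orientation (95% exact interval 11.4% to 33.9%), 15.8% had microhomology (7.48% to 27.9%) and 55.6% of 45 coding joins had lost more than 10 bp (40.0% to 70.4%). Insertions were present in 17.5% (8.75% to 29.9%), all in 1 library. Members made up 2.29%, 3.92% and 3.90% of rows in these libraries.

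One pattern belonged to a single member and a single group. In WT A, coding-orientation joins of Igkv14-111 that began 82 bp beyond its coding end, past the RSS, numbered 45, 27 and 61 rows, or 12.5%, 7.11% and 17.6% of that segment's rows. They comprised 19, 6 and 22 distinct junctions, and 43, 27 and 61 of the rows carried inserted bases, with a median of 6 bp in each library. No such join was present in the 7896 Igkv14-111 rows of all other groups, of which WT B held 5185. In the same lineage, Ku70-/- A1 and Lig4-/- +Lig4 A1 held only 59 and 214 of these rows. Whether the pattern belongs to this clone or to these libraries was not tested.

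Across the means of the 8 groups with at least 1000 rows per library, the segments whose share was most like the summed members were Igkv12-98 (Pearson r = 0.83), Igkv12-46 (0.79) and Igkv15-103 (0.76), at mean shares of 0.276%, 2.20% and 0.841%. The points share clones, sequencing runs and a total that all segments divide, so these values describe the groups only.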

How the data were processed

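The RAG libraries were made by linear amplification from the Jk1 coding end (LAM-HTGTS), with the enzyme blocking step left out, per the labels' protocols. The submitters' processing notes name Bowtie2 and mm10. The deposited junction lists (unit: other) hold 1 row per read with the position and orientation of the join and the bait and prey positions on the read; the authors equalised raw reads within a lineage, per the labels. Libraries were grouped by title. The 6 members and the lists of segments were chosen with earlier results of these data known.

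Rows were assigned to the nearest Igkv segment within 100 bp (RefSeq, GRCm38). Orientation was taken from the WT majority, and microhomology as the overlap of bait and prey on the read (at least 2 bp). End loss was counted from the RSS border at the members. At other segments it was counted from the RefSeq boundary, without segments whose most frequent WT A end lay over 5 bp from it. Shares of member joins were compared only where each library held at least 20 of them. Abundance was log2 of joins plus 0.5 per 100000 raw reads. Groups were compared by two-sided exact permutation within lineages (Python 3.11.15), and segments by limma 3.58.1 (R 4.3.3; lmFit, eBayes with trend) on log2 of percent plus 0.05, with a mean share of at least 0.1%, in the 24 libraries of the 8 groups with at least 1000 rows per library. The +Ku70 groups fell under these minimums, so only their abundance was tested. Scripts were tested on simulated data. Named segments were the 6 members and the 3 others whose log2 share correlated best with theirs over group means. Reads carry no molecular identifiers, so intervals and floors cover counting error only; 3 rows amount to between 9.81e-04% and 100% of a library.

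Same-numbered libraries deviated together (every correlation over 0.1) for Ku70-/- A1 with WT A (0.12, 0.18 and 0.14) and Lig4-/-Ku70-/- A1_1 with Ku70-/- A1 (0.20, 0.12 and 0.16), but not in the other 4 pairs of groups, so the number served as a block only as an alternative. Other alternatives were distinct junctions, other windows, thresholds, pseudocounts, filters, centring, sequencing runs, leaving out each library and, added after the data were seen, leaving out Igkv14-111 joins past its RSS.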

Additional observations from a re-analysis of the deposited data

Results flagged for a closer look

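Some differences changed with the lineage. The members' rise in end loss on loss of Ku70, relative to all other segments, differed by 12.7 percentage points between lineages B and A. Exact permutation of genotype labels within lineages gave p = 0.02, which is not a test of equal responses. The response of Igkv14-111 usage to loss of Ku70 differed by 1.39 on the log2 scale between lineages B and A (limma adjusted p = 0.00551), and by 1.19 (adjusted p = 0.0188) without the Igkv14-111 joins past its RSS. In Lig4-/-Ku70-/- against Lig4-/- +Lig4, usage differed between lineages C and A by -2.43 for Igkv14-130 (limma adjusted p = 7.95e-05) and by -1.01 for Igkv2-109 (limma adjusted p = 0.0400), a call lost without any 1 of 9 of the 12 libraries. Of the 21 other distal segments tested in that difference between C and A, 5 were called lower and 1 higher. Each lineage is 1 clone per genotype, and lineages were sequenced in different runs, so clone, run and lineage cannot be told apart.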

How the results depend on the processing

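Over 29 exact tests, 128 of 138 values under other settings and 267 of 282 without 1 library kept their direction and side of the threshold, and for single segments 125 of 140 and 160 of 180 did; the cause of the others was not tested. Exact tests with 1 lineage cannot give a permutation p below 0.1, so only their direction could change. Over distinct junctions, abundance in Ku70-/- against WT was -1.23, with the fall in lineage A and not in lineage B. Joins that differed only in which bases were inserted counted once there, which can understate joins in WT. Over the same junctions, end loss in Lig4-/-Ku70-/- against Ku70-/- was 0.635. Summed usage was -0.066 in Lig4-/- +Lig4 against WT and -0.014 in Lig4-/-Ku70-/- against Lig4-/- +Lig4. The latter usage was 0.18 with a window of 20 bp and 0.30 with the replicate number as a block (exact sign-flip p = 0.0625). Members minus other segments, Ku70-/- against WT, gave 2.58 in opposite joins and 2.93 in microhomology against segments of the same orientation; microhomology gave 1.30 with the replicate block and 1.44 within sequencing runs. The block changed no other call of the exact tests. In limma it gave 32 called segments for Ku70-/- against WT, 44 for Lig4-/-Ku70-/- against Ku70-/-, 8 for Lig4-/- +Lig4 against WT and 64 for Lig4-/-Ku70-/- against Lig4-/- +Lig4, where 35, 43, 11 and 66 were called without it. Segments called between Ku70-/- and WT numbered 59 over distinct junctions (41 lower) against 35 (17 lower).

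Centring on the median segment turned Igkv14-100 (0.14), Igkv14-111 (0.019) and Igkv14-130 (0.10) in Ku70-/- against WT, and Igkv2-109 (0.18) in Lig4-/-Ku70-/- against Lig4-/- +Lig4. Distinct junctions turned Igkv2-112 in Lig4-/-Ku70-/- against Ku70-/- (-0.12) and against Lig4-/- +Lig4 (-0.15), and Igkv14-100 in the latter (-0.19).

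Without 1 library at a time, Ku70-/- against WT gave summed usage of -0.15 to 0.00828, members minus other segments of 0.938 to 1.63 in microhomology and -0.0722 to 3.87 in end loss, and usage of -0.18 to 0.16 for Igkv14-100, -0.21 to 0.00473 for Igkv14-111, -0.13 to 0.060 for Igkv14-130 and -0.047 to 0.18 for Igkv2-109. Lig4-/-Ku70-/- against Ku70-/- gave abundance of -0.29 to 0.41, microhomology of 2.06 to 13.6, opposite joins of -7.99 to -2.59, insertions of 0.701 to 2.74, end loss of -6.79 to 2.18 and Igkv2-112 usage of -0.11 to 0.56. Lig4-/- +Lig4 against WT gave summed usage of -0.080 to 0.24, Igkv14-100 usage of -0.10 to 0.39 and 6 to 12 called segments. Lig4-/-Ku70-/- against Lig4-/- +Lig4 gave summed usage of 0.20 to 0.39. Depth limits the Lig4-/- and +Ku70 groups, whose libraries held 0 to 24 member joins.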
